A study of Mus musculus with 6 samples.

Results

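The 10 genes followed are linked to the macrophages that recycle iron. They are the complement C1q chains C1qa, C1qb and C1qc, the adhesion receptor Vcam1, the haem oxygenase Hmox1 and the iron exporter Slc40a1. The others are the transcription factor Spic, the apolipoprotein Apoe and the ferritin chains Ftl1 and Fth1. All were taken by symbol as a fixed list of 10 of the 20279 genes with a count in 6 single-cell Nanopore long-read libraries. All 10 had counts in the kept cells of 5 libraries, and 9 (all but Vcam1) in those of the standard 5′ replicate 1 library. The label of each library is spleen, from female mice at 10 weeks of age, and the series text gives the strain as C57BL/6. There were 2 libraries per protocol. The 3′ group used the 3′ kit v3.1, which captures transcripts at the poly(A) end. The standard 5′ group used the 5′ kit v2, which puts the barcode at the other end of the cDNA. The modified 5′ group used that kit with 1 µl of 10 mM dNTP added at reverse transcription and at amplification, 2 h of reverse transcription in place of 45 min, and 3 min of PCR extension in place of 1 min. The labels name no transgene, deletion or drug.

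The genes are linked to the macrophages that clear worn-out cells from blood, though not all are particular to them. In these data Apoe was also found in B cells and the ferritin chains in every class. In the red pulp of the spleen these cells engulf aged erythrocytes, break haem down with haem oxygenase, store the iron in ferritin and return it to plasma through ferroportin, the product of Slc40a1. Spic is a transcription factor needed for red pulp macrophages, Vcam1 is one of the surface proteins that mark them, C1q is the recognition molecule of the classical complement pathway and is made mostly by macrophages, and Apoe carries lipid out of cells. Ferritin and ferroportin messages are controlled by iron through a hairpin in the 5′ leader, the iron-responsive element, to which iron regulatory proteins bind when iron is scarce.

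That element is shown because it sets 3 of the 10 genes apart by sequence. A search of annotated 5′ leaders (GENCODE M21, build GRCm38) looked for a C, 5 bases, the loop CAGTGN and 5 bases that pair with the first 5, and found it in 31 of 20580 genes (0.151%). Among the members it lay in Slc40a1, 207 bases before the start codon (chr1:45925471-45925487, minus strand, exon 1), in Ftl1, 153 bases before it (chr7:45459785-45459801, minus strand, exon 1), and in Fth1, 115 bases before it (chr19:9982738-9982754, plus strand, in the 5′ untranslated region). The capitals mark the loop:
Slc40a1: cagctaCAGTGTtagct
Ftl1: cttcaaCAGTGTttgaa
Fth1: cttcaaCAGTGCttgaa
The 2 ferritin elements were the same apart from the last base of the loop, and the ferroportin element differed in its stem.

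The 3 C1q genes lie beside each other on chromosome 4 of GRCm38, all on the minus strand: C1qb at 136880129 to 136886187, C1qc at 136889804 to 136893065 and C1qa at 136895917 to 136898803. RefSeq promoters (GRCm38.p6) were found for 6 of the 10 members. The 250 bases before each start were searched on both strands for the letters GAGGAA, the PU box, a core bound by the PU.1 family that includes Spic. Of 32851 RefSeq promoters, 23.2% held these letters, so a match is a description and not a binding site. Of the 6 members with a promoter, C1qb, C1qc and Apoe held a match and Ftl1, Fth1 and Spic did not. The windows of the 2 C1q genes are shown because Spic is itself a member, with the match in capitals (for C1qc on the opposite strand):
C1qb, PU box, chr4:136886215-136886240, minus strand: agcaggatggGAGGAAcagaggggtg
C1qc, PU box, chr4:136893092-136893117, minus strand: cggcagacacTTCCTCattttggcac

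The libraries held 723341 to 2627253 counts, and 15578 of 20036 barcodes had at least 200 genes and were kept, with medians of 332 to 606 counts per library. In 1 library, standard 5′ replicate 1, only 34.0% of barcodes were kept, against 78.3% to 89.9% in the others. Haemoglobin genes took 13.4%, 15.7% and 22.3% of counts in the 3 replicate 1 libraries and 0.319% to 0.524% in the replicate 2 libraries. The extraction text describes strained spleen and red cell lysis for replicate 1 and pancreatic islets for replicate 2. The tissue label is spleen for all 6, and 12 pancreas markers summed to only 2.50 to 42.3 counts per 1000000 counts (CPM). Whether the replicates are separate animals is not in the labels, so p-values measure the spread between libraries. Pairs of libraries shared 0 to 16 barcodes.

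Kept cells were classed by raw counts of marker lists that held none of the 10 genes, with at least 2 counts of the class's own list and at most 1 of each other list. This gave 39 macrophage-gated cells (0.250% of kept cells), 348 monocyte-gated (2.23%), 8584 B-gated (55.1%) and 4312 T-gated cells (27.7%), while 642 mixed cells were left out and 1653 had no class. The macrophage-gated cells were 2, 0 and 4 in replicate 1 (3′, standard 5′, modified 5′) and 15, 7 and 11 in replicate 2. These cells held 0 T-list, 2 B-list and 19 monocyte-list counts, which the gate limits to at most 1 per list and cell. Those low counts therefore do not show purity. Of lists outside the gate they held 0 NK, 24 neutrophil and 11 dendritic marker counts. Erythroid markers, however, took 521207 CPM of the macrophage-gated counts in 3′ replicate 1, 449792 in modified 5′ replicate 1 and 130404 in standard 5′ replicate 2, against 94.4 in 3′ replicate 2 and 0 in modified 5′ replicate 2. The monocyte gate also took in cells with neutrophil markers (0 to 19567 CPM of its counts) and NK markers (297 to 10566 CPM), so it is named by its gate and not as a pure class.

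The C1q chains were near 0 in lymphocytes and among the measured messages of most macrophage-gated cells. In macrophage-gated cells C1qa stood at 437 CPM in 3′ replicate 1, 891 in modified 5′ replicate 1, 1888 in 3′ replicate 2, 3366 in standard 5′ replicate 2 and 3107 in modified 5′ replicate 2. C1qb was 437, 891, 2832, 3189 and 2453 CPM and C1qc 437, 1783, 2265, 2835 and 2943 CPM in the same order. The replicate 1 values, from 2 and 4 cells, were the lowest of each chain. Pooled over libraries, C1qa was 2214 CPM in macrophage-gated cells, 52.6 in monocyte-gated, 4.80 in B-gated and 3.43 in T-gated cells. C1qb was 2392, 109, 4.80 and 1.90 CPM, and C1qc 2321, 52.6, 3.20 and 1.52 CPM. A count of any C1q chain was present in 32 of 39 macrophage-gated cells (82.1%), in 4.60% of monocyte-gated, 0.478% of B-gated and 0.417% of T-gated cells. B and T cells should lack C1q, so their shares are the background, and whether it is free RNA, doublets or mis-gated cells was not tested (11 of the 41 B-gated cells with C1q had 2 or more counts). Median depth per library was 376 to 1143.5 counts in macrophage-gated cells, 343 to 549.5 in B-gated and 300 to 700 in T-gated cells. After thinning every cell to 250 counts, C1qa was still found in 44.7% of 38 macrophage-gated cells, against 0.106% of B-gated and 0.0467% of T-gated cells.

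Vcam1 and the 2 genes of iron handling, Hmox1 and Slc40a1, were also highest in pooled macrophage-gated cells and lowest in the lymphocyte gates. Vcam1 was 0 CPM in 3′ replicate 1 and 2080 in modified 5′ replicate 1, then 4247, 3898 and 4251 CPM in replicate 2 (3′, standard 5′, modified 5′). Hmox1 was 875, 1783, 3398, 1949 and 3434 CPM in the same order. Slc40a1 was 0, 1188, 3775, 886 and 2616 CPM. A 0 here rests on 2 cells and 2287 counts and allows up to 1312 CPM. For Slc40a1 the exact 95% Poisson intervals in replicate 2 were 2697 to 5141 CPM (3′) and 288 to 2067 CPM (standard 5′), which cover counting error only. These did not overlap, while 1495 to 4248 CPM (modified 5′) overlapped both. Slc40a1 is 1 of 10 members and not the only one that differed here. Fth1 went the other way, with its highest macrophage-gated value (18250 CPM) in standard 5′ replicate 2. With under 10 cells in 4 of the 6 libraries, no protocol was tested within macrophages. Pooled levels of Vcam1 in macrophage-gated, monocyte-gated, B-gated and T-gated cells were 3570, 39.5, 2.80 and 3.05 CPM. For Hmox1 they were 2714, 151, 6.61 and 2.28 CPM, and for Slc40a1 2321, 29.6, 2.80 and 1.52 CPM. Hmox1 had the most cells outside the macrophage gate among these genes, with a count in 7.76% of monocyte-gated cells and 0.338% of B-gated cells.

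Spic had few counts in every class. It was 0, 594, 849, 886 and 818 CPM in the macrophage-gated cells of 3′ replicate 1, modified 5′ replicate 1 and the 3 replicate 2 libraries (3′, standard 5′, modified 5′), and 26.3 CPM in monocyte-gated, 5.40 in B-gated and 6.85 in T-gated cells when pooled. The 3 replicate 2 values lay close together. Of its 100 counts, 21 were in macrophage-gated cells, 27 in B-gated and 18 in T-gated cells, where all but 1 cell had a single count. Part of the Spic sequence is not unique, since 11.6% of the 31-base words of its transcript occur in other genes.

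**Figure D1:**
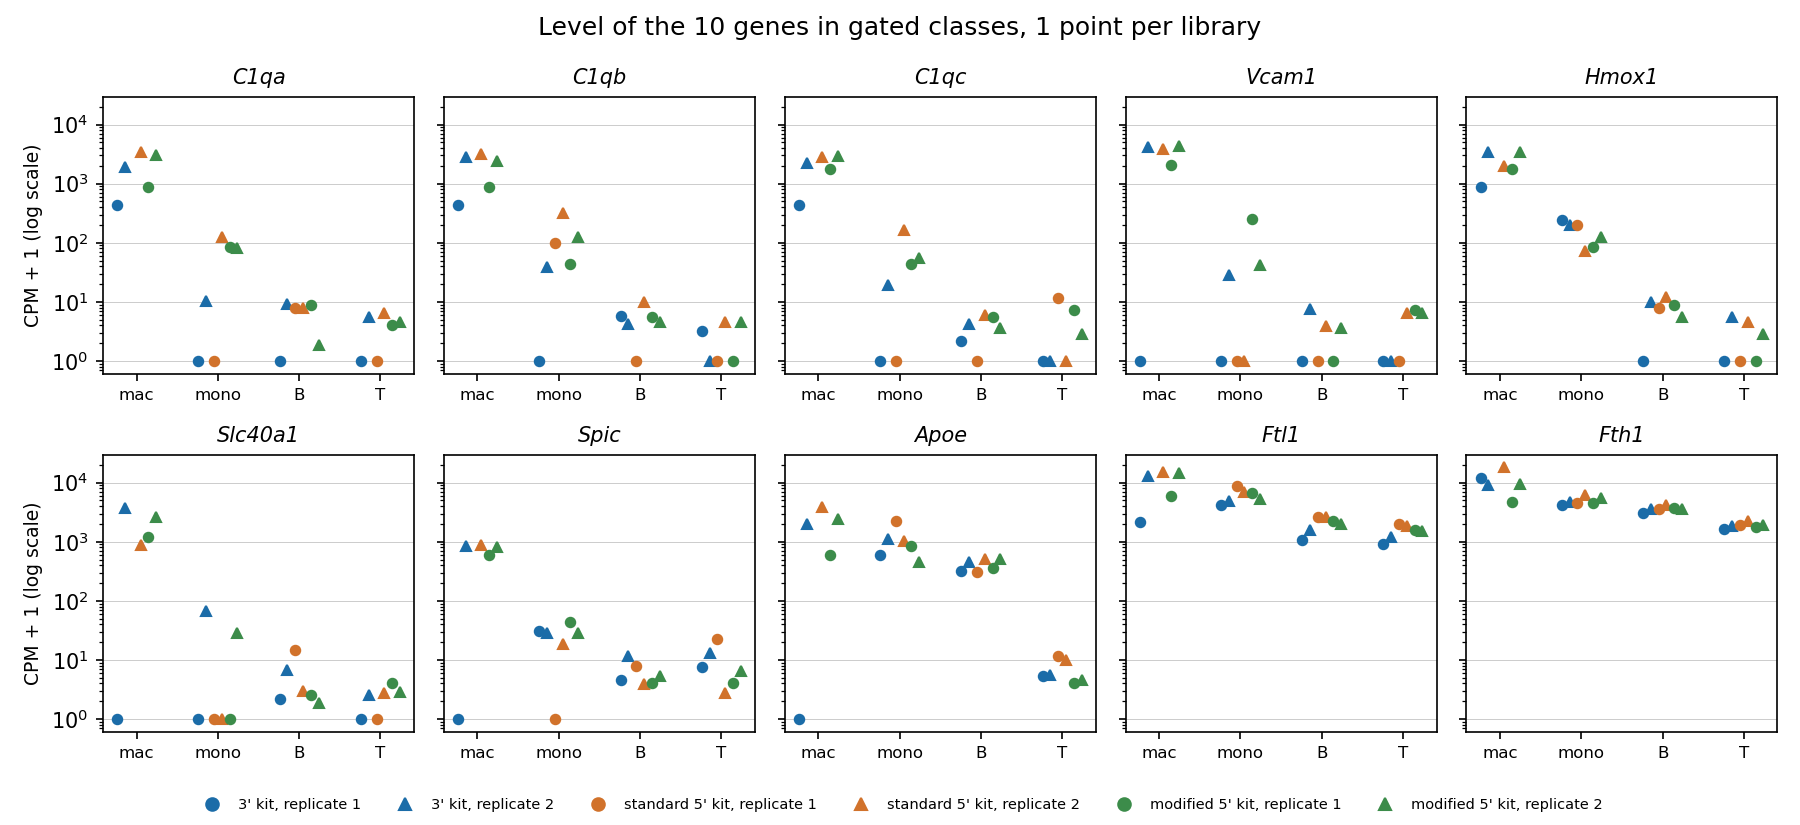
Level of each of the 10 genes (CPM + 1, log axis) in macrophage-, monocyte-, B- and T-gated cells, 1 point per library. Standard 5′ replicate 1 had no macrophage-gated cell and has no point there. C1q, Vcam1, Hmox1 and Slc40a1 lie near the floor in B and T cells, Apoe is high in B but not T cells, and the ferritin chains are high in every class.

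Within the 39 macrophage-gated cells Vcam1, Hmox1, Slc40a1, Spic and Apoe were each found more often in cells with C1q than without it. Of the 32 cells with C1q, 25 also had Vcam1 (78.1%), 25 had Hmox1, 24 had Slc40a1 and 21 had Apoe. Of the 7 cells without C1q, 2 had Vcam1, 3 each had Hmox1, Slc40a1 and Apoe, and none had Spic. All 16 cells with Spic had C1q and 15 of them had Vcam1. Some other pairs differed by as much: Spic was in 55.6% of cells with Vcam1 and 8.33% of those without. Slc40a1 was in 81.5% of cells with Vcam1 and 41.7% of those without. Others differed less: Vcam1 was in 71.4% of cells with Hmox1 and 63.6% of those without. Slc40a1 was in 75% of cells with Spic and 65.2% of those without. These are cells of 5 libraries that differ in depth, so the counts are a description without a test. The gate held much of the kept-cell signal of some members but not of others: 48.5% of Vcam1 counts, 40.6% of Slc40a1, 39.4% of C1q, 29.3% of Hmox1 and 2.07% of Apoe counts. A further 20.1% of C1q counts and 23.8% of Vcam1 counts lay in the 642 mixed cells left out.

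Classes were compared by sums per library, with the library as a block, in edgeR's quasi-likelihood test with Benjamini-Hochberg adjustment over 3105 genes. Only 2 macrophage sums had at least 10 cells (3′ replicate 2 with 15 and modified 5′ replicate 2 with 11), both with erythroid markers at or near 0. C1q, Vcam1, Hmox1, Slc40a1 and Spic passed the low-count filter through the macrophage sums, so their calls were given by their level and are no support, and no count over the members is used as such. For those genes the log2 differences from lymphocytes (B-gated and T-gated) were 8.48 ± 0.61 (SE) for C1qa, 9.19 ± 0.58 for C1qb, 9.51 ± 0.63 for C1qc, 9.58 ± 0.55 for Vcam1, 8.54 ± 0.49 for Hmox1, 9.16 ± 0.64 for Slc40a1 and 6.12 ± 0.80 for Spic. The median over all genes was -0.96, or -0.385 with library totals. In simulated counts the unchanged genes of this contrast had a median of -0.615, so the median is not a level of no change. Of all genes tested, 4.99% were called higher in macrophage-gated cells (15.1% in either direction). Against monocyte-gated cells, where 1.84% of genes were called higher (6.47% in either direction), the differences of the same genes ranged from 4.02 for Hmox1 to 6.19 for Slc40a1, with Spic at 4.31.

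The members with high levels elsewhere gave smaller differences. In macrophage-gated cells Apoe was 0 CPM in 3′ replicate 1, 594 in modified 5′ replicate 1, and 1982, 3898 and 2453 in replicate 2 (3′, standard 5′, modified 5′). The 2 replicate 1 values, from 2 and 4 cells, were the lowest. Apoe was higher in macrophage-gated cells than in lymphocytes by 2.25 ± 0.37 (edgeR adjusted p = 3.10e-07), and its difference from monocyte-gated cells was 0.83 (adjusted p = 0.182). Without modified 5′ replicate 2 the first fell to 1.64 (adjusted p = 0.0641). Ftl1 was higher than in lymphocytes by 2.42 ± 0.29 and higher than in monocyte-gated cells by 1.00 (edgeR adjusted p = 0.0173), but the latter call was lost in 5 of the 6 fits that left out 1 library, each library other than standard 5′ replicate 1. Fth1 was higher than in lymphocytes by 0.90 ± 0.30 (edgeR adjusted p = 0.0263), also lost in those 5 fits and at 0.093 without 3′ replicate 2. When the gate was applied to all barcodes, an alternative chosen after seeing the data, with 97 macrophage-gated barcodes and 4 sums of at least 10, Apoe also passed against monocyte-gated cells (log2 1.29, edgeR adjusted p = 0.00294). With library totals Apoe also passed (log2 1.21, edgeR adjusted p = 0.0249). In the main fit Fth1 differed from monocyte-gated cells by 0.51 (edgeR adjusted p = 0.337). It passed with library totals (0.89, edgeR adjusted p = 0.0141) and DESeq2 (0.78, adjusted p = 0.00458). It also passed with RLE scaling (0.78, edgeR adjusted p = 0.0489) and all barcodes gated (0.97, edgeR adjusted p = 0.0230). The signs did not hold throughout: Fth1 gave -0.33 without 3′ replicate 2 and -0.20 without the low-count filter, and Apoe -0.073 without modified 5′ replicate 2. Without the low-count filter Fth1 also fell to 0.055 against lymphocytes and Ftl1 to 0.30 against monocyte-gated cells, neither called. With Adgre1 left out of the gate, Ftl1 was not called against monocyte-gated cells either (0.74, edgeR adjusted p = 0.0754).

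In pooled cells the monocyte gate lay between the macrophage gate and both lymphocyte gates for each of the 10 genes. Its C1qa values ran from 0 to 125 CPM with a median of 45.4 over the 6 libraries, Hmox1 from 71.3 to 241 with a median of 159, and Slc40a1 from 0 to 65.2 with a median of 0. Few monocyte-gated cells carried C1q: 16 of 348 had a count, and 34 of the 65 C1q counts came from 2 cells of standard 5′ replicate 2. Against lymphocytes 48.2% of all genes were called (19.1% higher). Hmox1 was 4.53 higher on the log2 scale, C1qb 4.42, C1qc 3.88, Vcam1 3.40, C1qa 3.24 and Slc40a1 2.97. These genes and Spic passed the low-count filter of this fit through the macrophage sums, so their calls are no support. Spic had 8 counts in monocyte-gated cells, Slc40a1 9 and Vcam1 12. Spic (log2 1.80, edgeR adjusted p = 0.0391) was called in 1 of the 6 fits that left out a library, and Slc40a1 was not called without 3′ replicate 2 (log2 1.97, edgeR adjusted p = 0.339). Fth1, the heavy ferritin chain, gave 0.39 (edgeR adjusted p = 0.0736) and passed with DESeq2 (log2 0.43, adjusted p = 4.35e-04) and with library totals (log2 0.67, edgeR adjusted p = 1.33e-04).

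Apoe, unlike C1q, Vcam1, Hmox1, Slc40a1 and Spic, was well above 0 in B cells. In B-gated cells it was 321 and 450 CPM in 3′ replicates 1 and 2, 302 and 505 in the standard 5′ libraries, and 363 and 507 in the modified 5′ libraries. In T-gated cells it was at most 10.7 CPM, so every B value exceeded every T value. A count of Apoe was present in 7.10% to 15.1% of B-gated cells by library (12.9% pooled) and in 0.173% to 0.433% of T-gated cells. Thinned to 250 counts, the pooled shares were 7.47% of B-gated and 0.187% of T-gated cells. T cells should lack Apoe, so the T share is taken as the background, and median depths of the classes overlapped (343 to 549.5 and 300 to 700 counts). B-gated cells held 75.2% of all Apoe counts of kept cells, monocyte-gated cells 9.41% and macrophage-gated cells 2.07%. In monocyte-gated cells Apoe was present in 19.0% to 44.4% of cells.

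**Figure D2:**
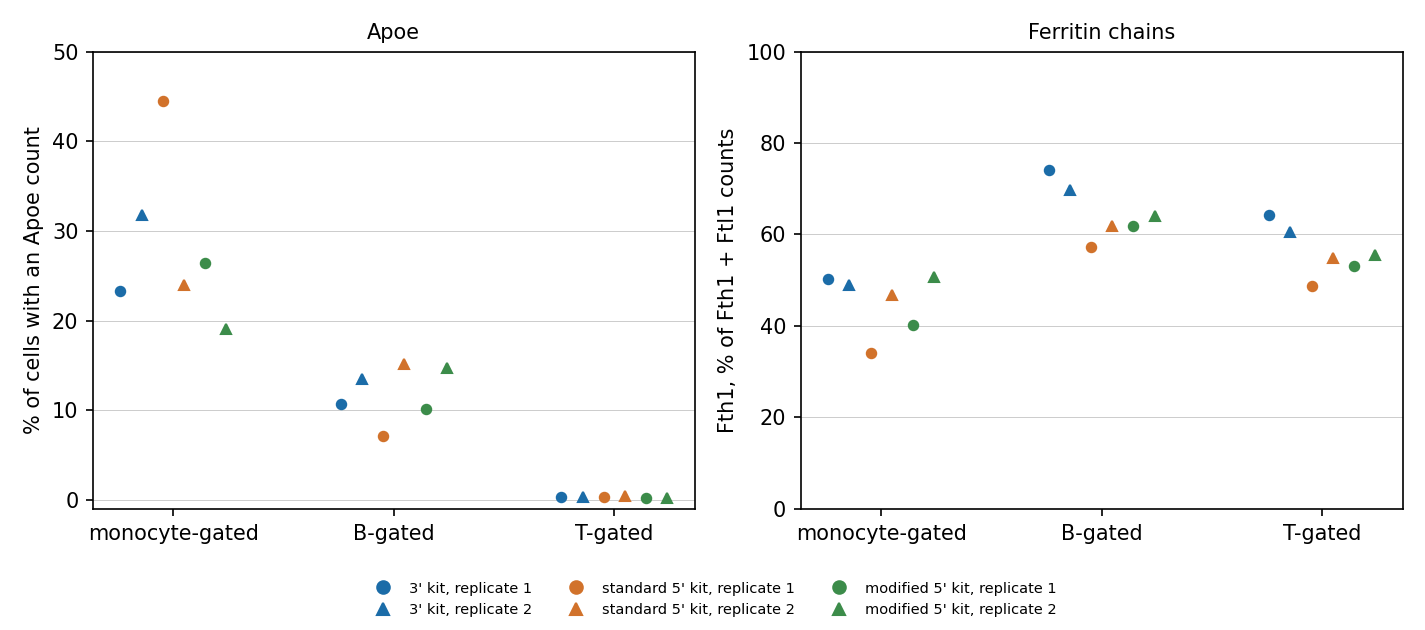
Left, share of cells with at least 1 Apoe count (percent) by class and library; right, Fth1 as a share of ferritin counts (percent) by class and library. The 6 B-gated points for Apoe lie between 7.10% and 15.1%, above all T-gated points, and in each library the Fth1 share is higher in B than in T and in T than in monocyte-gated cells.

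B-gated cells with and without an Apoe count were compared within each library, a split made after the level of Apoe in B cells had been seen. There were 26 to 286 Apoe-positive cells per library, and their median depth was above that of the other B cells in all 6 libraries, from 350 against 343 counts to 691 against 540, so the part of depth in these values was not tested. In edgeR's quasi-likelihood test on sums blocked by library, 68 of 3307 genes were called (2.06%), 42 higher and 26 lower. Among the higher ones the chromatin protein Hmgb2 was at 605 CPM in Apoe-positive and 264 CPM in Apoe-negative cells on average (log2 1.20, higher in 6 of 6 libraries). The replication factor Pclaf, at 162 and 50.9 CPM, and the topoisomerase Top2a, at 127 and 53.7 CPM, were higher in 4 libraries and lower in 2. The DNA repair gene Hmces (log2 1.46) and the transcription factor Zbtb20 (1.11) were higher in 6 of 6 libraries, and Fcrl5, an Fc receptor-like protein of marginal zone and B-1 cells, in 5 of 6 (1.14).

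Genes lower in the Apoe-positive B cells included the light chain segment Iglv1 (log2 -1.60), Vpreb3 (-1.08), Cnn3 (-1.02) and the low-affinity IgE receptor Fcer2a (-0.61), each lower in 6 of 6 libraries. Vpreb3 averaged 215 CPM in Apoe-positive and 533 CPM in Apoe-negative cells, and Fcer2a 200 and 341 CPM. Of the other members only the ferritin chains were abundant enough to be tested: Ftl1 was 0.35 higher (edgeR adjusted p = 0.00612, higher in 5 of 6 libraries, called in 4 of the 6 fits that left out a library) and Fth1 gave -0.033.

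Ferritin is built from a heavy chain (Fth1), which oxidises iron, and a light chain (Ftl1), which helps store it. Both were in every class, with pooled levels of Ftl1 of 12068 CPM in macrophage-gated, 5568 in monocyte-gated, 1905 in B-gated and 1435 in T-gated cells. Pooled Fth1 was 10676, 5072, 3624 and 1904 CPM. By library, macrophage-gated Ftl1 was 2186 CPM in 3′ replicate 1, 5942 in modified 5′ replicate 1, and 12836, 15415 and 14716 CPM in replicate 2 (3′, standard 5′, modified 5′). The 2 low values are from the libraries where erythroid markers took 521207 and 449792 CPM of these cells' counts. Macrophage-gated Fth1 was 11806, 4753, 8966, 18250 and 9483 CPM in the same order, with no such split.

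The balance of the 2 chains differed between classes in every library. Fth1 made up 74.0% and 69.6% of ferritin counts in B-gated cells of the 3′ libraries (replicates 1 and 2), 57.2% and 61.9% of the standard 5′ and 61.8% and 64.1% of the modified 5′ libraries. In T-gated cells the shares were 64.3% and 60.5%, 48.8% and 54.8%, and 53.2% and 55.5%. In monocyte-gated cells they were 50.2% and 49.0%, 34.1% and 46.7%, and 40.3% and 50.7%. The share in B cells exceeded that in T cells by 8.60 percentage points on average (7.15 to 9.70, higher in 6 of 6 libraries), and that in monocyte-gated cells by 19.6 points (13.5 to 23.8). T cells exceeded monocyte-gated cells by 11.02 points (4.78 to 14.7). Each of these 3 comparisons gave p = 0.03125 in a two-sided exact sign-flip permutation test over libraries, the smallest 6 libraries allow, and 0.03125 after adjustment over the 3. In macrophage-gated cells the share was 41.1% (95% exact interval 34.7 to 47.8) in 3′ replicate 2, 54.2% (46.8 to 61.4) in standard 5′ replicate 2 and 39.2% (31.3 to 47.5) in modified 5′ replicate 2. It was 84.4% of 32 ferritin counts in 3′ replicate 1 and 44.4% of 36 in modified 5′ replicate 1. Against the monocyte share of the same library, 3 of these 5 were higher and 2 lower. The shares are of counts, and 85.4% of the 31-base words of the Ftl1 transcript also occur in other genes, 80.6% in the pseudogene Ftl1-ps1. That pseudogene was itself given 2.50 to 5.66 CPM, so Ftl1 values depend on how the authors assigned such reads. For Fth1 the shared part was 7.92%, and for C1q, Vcam1, Hmox1, Slc40a1 and Apoe 0%.

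Between protocols, Ftl1 was higher in both 5′ groups than in the 3′ group. Over all kept cells it was 1321 and 1787 CPM in the 3′ libraries, 3018 and 2713 in the standard 5′ libraries and 2356 and 2153 in the modified 5′ libraries. No 5′ value overlapped the 3′ values. The log2 difference was 1.27 ± 0.22 for standard 5′ against 3′ (edgeR adjusted p = 0.00574) and 0.89 ± 0.22 for modified 5′ against 3′ (edgeR adjusted p = 0.0226). These comparisons share the 3′ libraries. Replicate 1 alone gave log2 1.19 for standard 5′ and 0.83 for modified 5′, and replicate 2 alone gave 0.60 and 0.27, so the direction held in both. TMM factors raised the median of all genes by 0.38 and 0.36 over that with library totals. With library totals Ftl1 gave 0.87 (edgeR adjusted p = 0.0209) and 0.53 (edgeR adjusted p = 0.117), so the call of modified 5′ depended on the scaling. Ftl1 was 1 of 10 members called in each, where 23.3% and 18.4% of 11546 genes were called, and the median of the 10 was 0.55 and 0.66 against -0.0077 and -0.017 over all genes. Without standard 5′ replicate 2 the adjusted p of the first was 0.0542. The second was lost without 3′ replicate 1 (0.0911), modified 5′ replicate 1 (0.151) or modified 5′ replicate 2 (0.0915), all by edgeR.

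The difference in Ftl1 was present inside each lymphocyte class. In B-gated cells it was 1078 and 1555 CPM (3′), 2639 and 2582 (standard 5′), then 2280 and 1991 (modified 5′), giving log2 1.28 (edgeR adjusted p = 3.49e-05) and 1.01 (edgeR adjusted p = 5.96e-04) against 3′. In T-gated cells it was 911 and 1189, 2032 and 1851, and 1590 and 1547 CPM, giving 1.05 (edgeR adjusted p = 0.00104) and 0.81 (edgeR adjusted p = 0.00963). In B-gated cells 31.4% and 29% of genes were called in these contrasts, and in T-gated cells 23.1% and 19.7%. Between the 5′ groups no member was called in either class, where 0.15% (B) and 0.0394% (T) of genes were. The B calls held in all 6 fits that left out a library, and the T call of modified 5′ was lost in 2 of them. With library totals the B calls held (log2 0.97 and 0.68, edgeR adjusted p = 8.79e-04 and 0.0158), as did standard 5′ in T-gated cells (0.85, edgeR adjusted p = 0.00486), while modified 5′ there gave 0.55 (edgeR adjusted p = 0.0667). Only Apoe, Ftl1 and Fth1 of the members were abundant enough to be tested in B-gated cells, and only the ferritin chains in T-gated cells.

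Fth1 gave smaller differences. It was 3355 and 3048 CPM (3′), 3983 and 3588 (standard 5′), then 3191 and 3066 (modified 5′) over all kept cells. Standard 5′ against 3′ gave 0.62 ± 0.20 (edgeR adjusted p = 0.0504), or adjusted p = 0.00804 with the replicate number as a block and 0.0130 with DESeq2, and modified 5′ against 3′ gave 0.32 (edgeR adjusted p = 0.292). By CPM the differences were smaller: standard 5′ exceeded 3′ by log2 0.25 in replicate 1 and 0.24 in replicate 2, and the modified protocol differed from 3′ by -0.072 and 0.0086. With library totals in place of TMM factors the fit gave 0.23 (edgeR adjusted p = 0.430) and -0.040 (edgeR adjusted p = 0.910), so the modified 5′ value changed sign with the scaling. Apoe, at 185 and 332, 205 and 339, and 282 and 326 CPM, gave 0.48 (edgeR adjusted p = 0.268) and 0.59 (edgeR adjusted p = 0.194), the latter at adjusted p = 0.0142 with the block. With library totals these were 0.086 (edgeR adjusted p = 0.871) and 0.23 (edgeR adjusted p = 0.638).

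**Figure D3:**
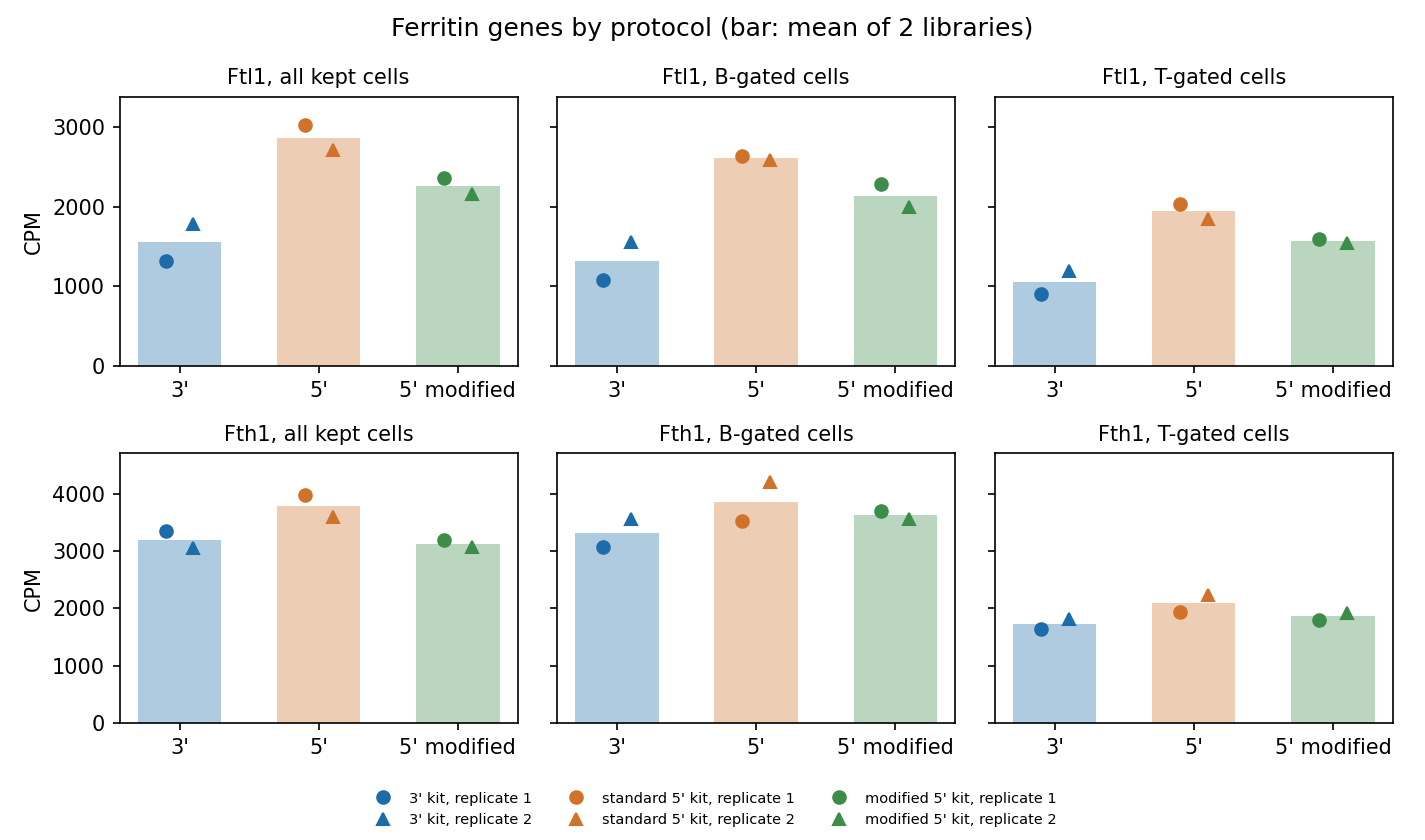
Levels of Ftl1 and Fth1 (CPM, axes from 0) by protocol in all kept, B-gated and T-gated cells, with 1 point per library and bars at the mean of 2 libraries. The 4 5′ points of Ftl1 lie above both 3′ points in each of the 3 panels, while the modified 5′ points of Fth1 overlap the 3′ points in all kept cells.

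The members with macrophage-gated counts differed between the replicate numbers. C1qa was 3.44 and 19.0 CPM over kept cells in 3′ replicates 1 and 2, 5.47 and 22.7 in standard 5′, and 13.3 and 20.5 in modified 5′. Vcam1 was 1.72 and 34.8, 0 and 18.1, and 24.2 and 25.2 CPM, and C1qc 2.86 and 18.2, 2.73 and 18.6, and 17.5 and 19.0 CPM. Replicate 2 was higher for each of these genes in each protocol, as was the share of macrophage-gated cells. In such sums fewer cells of a type and less RNA per cell cannot be told apart. The gene minimum for kept cells also removed a larger share of C1q counts in replicate 1. Barcodes below it held 58.6%, 89.6% and 58.1% of C1q counts in replicate 1 (3′, standard 5′, modified 5′). In replicate 2 they held 35.6%, 43.5% and 41.0% in the same order. The part of this filter in the gap between replicate numbers was not tested. Slc40a1, at 6.30 and 34.4, 13.7 and 8.25, and 10.0 and 14.8 CPM, and Spic, at 5.15 and 17.8, 13.7 and 7.22, and 7.51 and 9.04 CPM, were higher in replicate 2 for 3′ and modified 5′ but not for standard 5′. Hmox1 was 9.16 and 47.7, 8.20 and 24.2, and 22.5 and 22.8 CPM, highest in 3′ replicate 2. C1qb was 10.3 and 19.0, 5.47 and 27.8, and 16.7 and 21.4 CPM.

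Over kept cells, with all 6 libraries and the group as the only term, none of these 7 genes passed the edgeR test between protocols. With all barcodes C1qb passed for standard 5′ (log2 0.99, edgeR adjusted p = 0.0323) and modified 5′ (log2 1.04, edgeR adjusted p = 0.0301) against 3′. With the replicate block C1qc passed for modified 5′ against 3′ (log2 1.16, edgeR adjusted p = 0.0337). Without 3′ replicate 2 the remaining 3′ library was the low one, and C1qa (log2 2.71 and 2.64), C1qc (2.65 and 2.98) and Vcam1 (3.25 and 4.11) passed against 3′ for standard and modified 5′, with Vcam1 turning from -0.15 in the first. Between modified and standard 5′, edgeR called 0 of 11546 genes (0%), with 459 at an unadjusted p under 0.05, and DESeq2 called 1. The differences of the members there ran from -0.38 for Ftl1 to 0.89 for Vcam1, with a median of 0.035.

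A large part of the macrophage members' counts lay outside the kept cells. Of all counts deposited, 11.1% were in barcodes with under 200 genes. For C1qa that share was 51.5%, for C1qc 44.6%, for C1qb 43.8%, for Hmox1 43.2%, for Vcam1 40.6%, for Slc40a1 38.2% and for Spic 28.1%, above the share of all counts in 6 of 6 libraries for each. Ftl1 (16.6%, above in 5 of 6) stood closer to it, and Apoe (10.3%) and Fth1 (10.5%) were above it in 3 of 6. The split of barcodes by gene number was examined after these values were seen. There were 6, 3 and 10 macrophage-gated barcodes below the minimum in replicate 1 (3′, standard 5′, modified 5′) and 14, 11 and 14 in replicate 2, or 58 against the 39 kept. The low barcodes had medians of 142 to 268.5 counts, and haemoglobin took 3.64% to 81.3% of their counts by library.

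In edgeR's test of low against kept barcodes, blocked by library, 1.76% of 5117 genes were called (1.52% higher in low barcodes). C1q, Vcam1, Hmox1 and Slc40a1 passed the low-count filter mostly through the low sums, where they were high. The split was also made after their shares had been seen, so their calls are no support. The log2 differences were 4.77 ± 0.32 for C1qa, 4.30 for C1qb, 4.36 for C1qc, 4.30 for Vcam1, 4.39 for Hmox1 and 3.88 for Slc40a1. They were 1.83 for Ftl1, 1.11 for Apoe and 1.02 for Fth1. The TMM factors of this fit ran from 0.183 to 1.64. With library totals in their place all values were lower, with C1qa at 3.76, C1qb 3.19, C1qc 3.41, Vcam1 3.57, Hmox1 3.27 and Slc40a1 2.73. Ftl1, Apoe and Fth1 became 0.78, 0.078 and -0.026 and were not called. C1qa was 75.5 CPM in low and 3.44 in kept barcodes of 3′ replicate 1, and 548 and 20.5 in modified 5′ replicate 2. Of the erythroid markers 8 of 10 were also higher (log2 6.04 for Hbb-bs and 5.43 for Alas2), and their part in the result was not tested. Among 14 tested genes of iron and haem handling, 2 were higher: the haem transporter Slc48a1 (2.76) and the mitochondrial iron importer Slc25a37 (2.53).

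**Figure D4:**
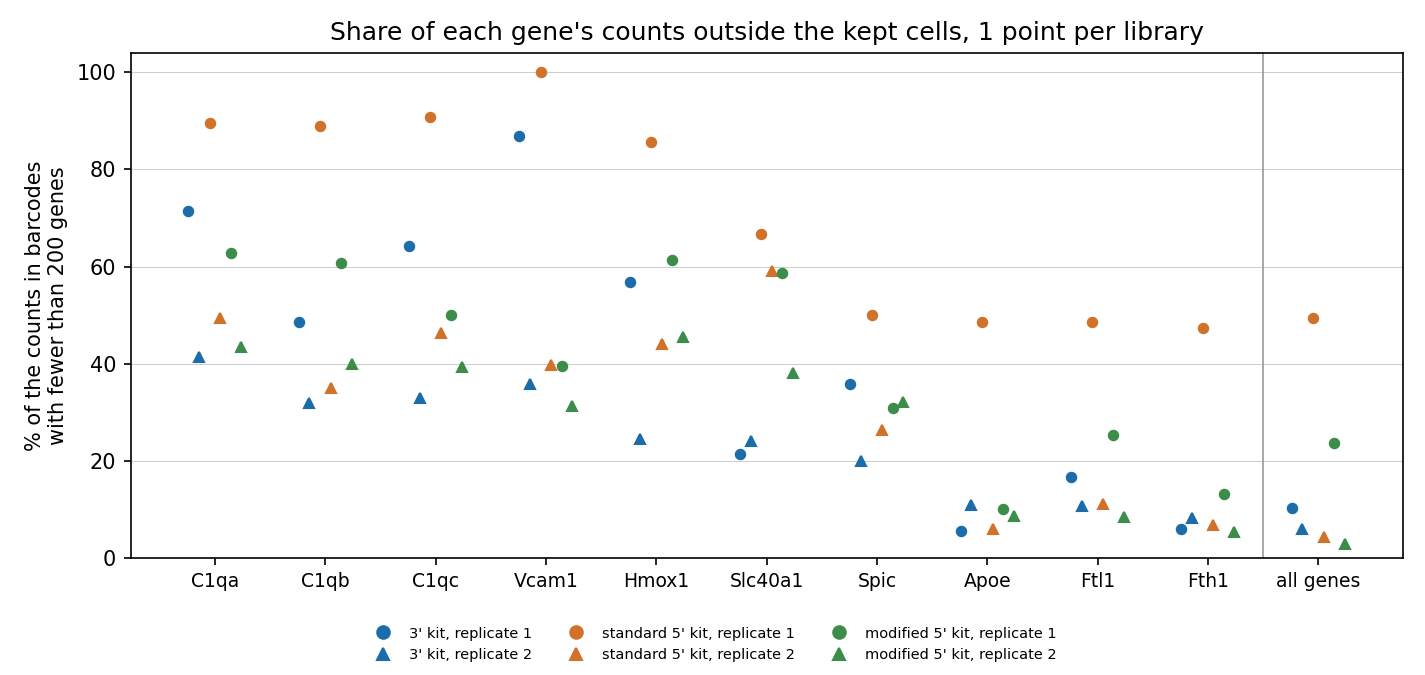
Share of each gene's counts that lay in barcodes with under 200 genes (percent), 1 point per library, beside the same share for all genes. For C1q, Vcam1, Hmox1, Slc40a1 and Spic each library's point lies above that library's share for all genes.

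Other genes of the same pathways were counted from lists. Between standard 5′ and 3′, where 23.3% of all genes were called, 0 of 13 tested complement genes (of 32 listed) passed. Of 25 tested iron and haem genes (of 33), 2 were higher (the second haem oxygenase Hmox2, log2 1.35, and the haem transporter Slc48a1, 1.23) and 1 was lower (the iron regulatory protein Ireb2, -1.10). Hmox2 was 61.8 and 83.3 CPM in the 3′ libraries and 150 and 136 CPM in the standard 5′ libraries, without overlap. Of 15 tested lipid efflux genes (of 18), 4 were higher and 4 lower. They included Apoc2, the apolipoprotein that activates lipoprotein lipase, at 0.573 and 0.808 CPM with the 3′ kit against 21.9 and 9.28 with the standard 5′ kit, and that lipase itself, Lpl, at 30.9 and 31.9 against 5.47 and 7.22 CPM. The 3′ values of Apoc2 were 1 and 2 counts, and its gene lies in the same cluster as Apoe. Of 7 tested partners and regulators of Vcam1, 2 were higher and 1 lower. For modified 5′ against 3′ the complement gene that passed was properdin, Cfp (log2 1.24, edgeR adjusted p = 0.0491), of 13 tested.

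Between macrophage-gated cells and lymphocytes, 4.99% of all genes were called higher and 15.1% in either direction. Of 9 tested genes on the complement list 2 were higher, the complement protein Cfp (log2 4.52) and the endocytic receptor Lrp1 (8.22). Another 2 were lower, Cr2, the complement receptor of B cells, and Cd55, which limits complement on cells. Of 10 tested iron and haem genes 4 were higher, among them transferrin (Trf, 7.28), the phagosomal metal transporter Slc11a1 (7.81) and Slc48a1 (3.72), and 1 was lower. Of 11 tested lipid genes 2 were higher, Scarb1 (4.34) and Plin2 (3.05). The medians of the lists were -0.72, -0.50 and 1.41 against -0.96 over all genes. The low-count filter kept genes that reached its level in as few as the 2 macrophage sums. The list counts called higher are thus partly given by the filter and are no support. These calls rest on few counts: Trf had 8 and 12 counts in the 2 macrophage sums, Cfp 7 and 10, and Lrp1 1 and 4. Against monocyte-gated cells Cfp (2.87) and Trf (2.30) were also higher, while Lrp1 (-0.039) and Slc11a1 (1.18, edgeR adjusted p = 0.499) did not pass.

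The genes whose pattern was most like that of the C1q chains were ranked by Pearson's r of log2(CPM + 10) over 20 sums of library and class, as a description, since sums of 1 library share depth and all but a few are low in these genes. Outside the gate genes they were Clec4n (0.94), Galnt3, Frmd4b, Siglece (0.93 each), Rab3il1, Itgb5 (0.92 each), Sema6d, Fcgrt and Pira2 (0.91 each). For the mean of Slc40a1 and Hmox1 they included Ptgs1 (0.95), Tspan4, Sdc3, Tcf7l2 and C6. Ptgs1, a cyclooxygenase, averaged 223 CPM in the macrophage sums and 3.82 CPM in the monocyte sums. Only 2 of the 20 were macrophage sums, and all 39 macrophage-gated cells together held 28008 counts. Averages such as 223 CPM for Ptgs1 or 129 CPM for Itgb5 thus rest on a few counts, and so do the ranks. Siglece was on both lists, and the gate genes Mrc1 and Axl reached 0.94.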

How the data were processed

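For each of 6 libraries the authors deposited raw counts, whole numbers without normalization, with genes by symbol and cells by barcode. The build mm10 and, for replicate 2, Seurat are named per the submitters' processing notes. Not given in the sources used here are the aligner, the annotation, the use of strand and any collapse of reads to molecules, so 1 count may not be 1 molecule, and intervals and floors (3 counts) cover counting error only. No doublet caller was run, and cells of mixed gate were left out.

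Kept barcodes had 200 genes or more and no more than 20% mitochondrial counts. CPM are counts per 1000000 of a library's or class's own total. Sums per library, or per library and class of at least 10 cells, went into edgeR 4.0.16 under R 4.3.3 (quasi-likelihood test, TMM factors, filterByExpr, Benjamini-Hochberg adjustment at 0.05). The protocol fit had the group as its only term and 3 residual degrees of freedom, and the class fits had the library as a block. DESeq2 1.42.0 and scaling by library totals were alternatives, the latter chosen after seeing the data. Within-replicate log2 differences add 1 CPM.

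The 3 libraries of a replicate number share an extraction text, and they deviated together from the group means (correlations 0.450, 0.391 and 0.237 over 11546 genes). The number was therefore read as a batch, and the blocked value is given where it changes a call. No library pair agreed within sampling noise (chi-square per degree of freedom 13.4 or more).

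The members and the lists were chosen with earlier results of these data known. The text names the 10 members, at most 4 genes per list by level or by fold, and genes among the 10 most like C1q or Slc40a1 with Hmox1, of which 1 is not reported here. The erythroid genes in low barcodes and the genes of Apoe-positive B cells were named after their values were seen.

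On simulated counts of 11208 genes for standard 5′ against 3′, the fit recovered 10 of 50 rises and 6 of 50 falls of log2 1, and 49 and 39 of 50 of log2 2, with 4 of 108 calls false. For macrophages against lymphocytes (2850 genes) it recovered 42 of 50 rises of log2 3 and 50 of 50 of log2 5, but 7 and 5 of 50 falls, with 11 of 115 calls false. For monocytes against lymphocytes (4215 genes) it recovered 50 of 50 rises of log2 2 and of log2 4, and 40 and 46 of 50 falls, with 5 of 191 calls false.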

Additional observations from a re-analysis of the deposited data

How the results depend on the processing

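The class results rest on 2 macrophage sums, and the simulated data show that falls in macrophages are mostly missed at this depth. Stricter macrophage gates (3 counts of the own list, or 0 of the others) left 20 cells each and no library with 10, so they gave no value, and no protocol fit within macrophages was run. With DESeq2 the split of calls for macrophages against lymphocytes was 206 higher and 96 lower, against 155 and 314 with edgeR and TMM factors. Library totals in place of TMM, added after seeing the data, also moved the splits: 557 higher and 2641 lower (1443 and 1246 with TMM) for standard 5′ and 495 and 2278 (1178 and 946) for modified 5′ against 3′, 683 and 2635 (1344 and 1590) and 641 and 2642 (1257 and 1453) within B cells, 528 and 1439 (795 and 966) and 435 and 1345 (734 and 764) within T cells. For macrophages they gave 186 and 138 against lymphocytes and 70 and 80 (57 and 144) against monocytes, and for monocytes 703 and 597 (594 and 904). Of the members' values under the alternatives, 810 stayed the same, 47 moved, 30 gained a call, 42 lost one and 2 reversed. The reversals were Vcam1 for standard 5′ against 3′ when 1 library was left out (-7.75 without standard 5′ replicate 2, where the remaining standard 5′ library held 0 counts, to 3.25 without 3′ replicate 2) and Fth1 in low against kept barcodes with library totals only (-0.026). The causes were not tested.

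With the replicate block, genes called numbered 4127 for standard 5′ against 3′ (2689 without it), 3820 for modified 5′ against 3′ (2124), 21 between the 5′ groups (0) and, within B cells, 5 between the 5′ groups (14). It changed no member call other than those of Fth1 (also within B cells, adjusted p = 0.0475), C1qc and Apoe. With DESeq2 the first 3 counts were 1584, 1258 and 1, and 302 (of 469) and 103 (of 201) for macrophages against lymphocytes and monocytes. Without the low-count filter 65 genes were called between the 5′ groups and 2434 (of 1498) for monocytes against lymphocytes. Without Adgre1 in the gate 305 genes separated macrophages from monocytes. With all barcodes gated 824 separated monocytes from lymphocytes, and with library totals only 23 (of 90) separated low from kept barcodes.

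Leaving out each library in turn gave 221 to 2763 genes for standard 5′ against 3′, 416 to 2216 for modified 5′ against 3′ and 0 to 1 between the 5′ groups. Within B cells these were 533 to 3069, 1405 to 2828 and 10 to 35, and within T cells 210 to 1866, 673 to 1603 and 5 to 46. The counts of standard 5′ against 3′ were lowest without standard 5′ replicate 2 and also low without 3′ replicate 1 (966, 1691 in B and 876 in T cells). Those of modified 5′ against 3′ were low without 3′ replicate 1 (642, 1406 and 706), modified 5′ replicate 1 (416 and, in B cells, 1713) or modified 5′ replicate 2 (490, 1405 and 673). Macrophages gave 212 to 530 genes against lymphocytes (234 without 3′ replicate 2) and 59 to 248 against monocytes, lowest without modified 5′ replicate 2. In those fits 1 macrophage sum is left and is assumed to vary like the other classes. Monocytes gave 1124 to 1470. Low barcodes gave 43 (without modified 5′ replicate 2), 50 (3′ replicate 1), 55 (standard 5′ replicate 2) and up to 345 (standard 5′ replicate 1), and Apoe-positive B cells 32 (standard 5′ replicate 2) to 96.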
